A study of Mus musculus with 51 samples.

Results

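The peaks described here are stretches of trimethylated lysine 27 of histone H3 (H3K27me3) in the epiblast of wild-type mouse embryos that carried more of the mark on the allele inherited from one parent. They were chosen from 11810 autosomal H3K27me3 peaks of the epiblast. Of these, 8924 (75.6%) had 20 or more reads in 1 or more of the allele columns and are called informative. Maternal and paternal reads were then compared within each of the reciprocal crosses, and a peak was called imprinted when the adjusted p-value of the quasi-likelihood test of edgeR was below 0.05 in both crosses with the same parent higher. This gave 29 imprinted peaks, 0.325% of the informative peaks. Of these, 25 were higher on the paternal allele (0.280%) and 4 on the maternal allele (0.0448%), measured in 4 of the 51 libraries of the series.

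H3K27me3 is laid down by Polycomb repressive complex 2 and marks silent or poised chromatin, often over the whole body of a developmental gene. In imprinted clusters a stretch of DNA is methylated in the egg or the sperm, and the parental alleles keep that difference through the reprogramming of the early embryo. Some clusters hold a long non-coding RNA, such as Kcnq1ot1 or Airn, that is transcribed from the unmethylated allele and under which, on the same allele, Polycomb marks spread over neighbouring genes, best known from extra-embryonic tissue.

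Histone marks were profiled by ultra-low-input native ChIP-seq in dissected epiblast and extra-embryonic ectoderm (ExE, the neighbouring tissue that contributes to the placenta) at embryonic day 6.5. Each epiblast library was made from 1 pool of 4 epiblasts, about 2500 cells, so that embryos within a pool cannot be told apart. The embryos were F1 hybrids of C57BL6/Babr (B6) and CAST/Ei (CAST). The mother is named first, and the wild-type embryos, from B6/CAST or CAST/B6 matings, carried no deletion. There were 2 libraries of each cross, and the p-values measure the spread between these libraries, which may be technical. In the comparison cross matDKO/CAST, oocytes had lost Dnmt3a and Dnmt3b through Zp3-cre in females of a mixed B6 and 129 strain, so that the embryos inherited no maternal methylation imprints and a deleted maternal copy of both genes. Unless stated otherwise, values of 4 libraries are given in the order B6/CAST replicates 1 and 2, then CAST/B6 replicates 1 and 2.

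The wild-type libraries held 0.912 to 1.99 M allele-assigned reads in autosomal peaks, with a paternal share of 47.4%, 49.3%, 50.2% and 50.4%. B6/CAST replicate 1 stood apart. Chromosomes 3 and 11 had paternal shares of 39.8% and 38.9% there, against 46.7 to 49.1% on the chromosomes other than 3, 7, 11 and 17, and H3K4me3 of the same cross and replicate number gave 41.3% and 41.6%, while H3K36me3 gave 49.3% on each. Of the imprinted peaks, Grb10 alone lies on these chromosomes. The labelled tissue was checked by H3K4me3 at gene starts, in RPKM (reads scaled to window length and library size), over 4 libraries per tissue. Summed over 6 epiblast markers it was 137 to 167 in epiblast and 31.9 to 60.4 in ExE, over 6 ExE markers 53.0 to 79.6 and 88.6 to 120, and over 6 markers of visceral endoderm, the layer around both tissues, 13.2 to 27.7 and 30.6 to 52.3. Of the ExE markers, Cdx2, Tfap2c and Sox21 were higher in every ExE library than in any epiblast library, Ets2 and Elf5 overlapped, Elf5 at 0.0910 to 0.574 over both tissues, and Esrrb went against the label with 0.481 to 0.841 in epiblast and 0.161 to 0.393 in ExE. No marker was at 0 in all libraries of a tissue, and the part of other cells in the allelic values was not tested.

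For each of 6 genes a start serves as a landmark below. Their windows, 250 bases before to 50 after the start, are given from RefSeq on GRCm38.p6, read 5′ to 3′ along the gene, with every CG dinucleotide, the target of DNA methylation, in capitals. The starts of the non-coding RNAs Kcnq1ot1 and Airn are shown because paternal H3K27me3 lay on either side of them, those of Grb10 and Plagl1 because they lay inside the 2 peaks with the largest paternal bias, and those of Zdbf2 and Dlk1 because they lay inside maternal peaks.
Kcnq1ot1 chr7:143296498-143296797 (- strand): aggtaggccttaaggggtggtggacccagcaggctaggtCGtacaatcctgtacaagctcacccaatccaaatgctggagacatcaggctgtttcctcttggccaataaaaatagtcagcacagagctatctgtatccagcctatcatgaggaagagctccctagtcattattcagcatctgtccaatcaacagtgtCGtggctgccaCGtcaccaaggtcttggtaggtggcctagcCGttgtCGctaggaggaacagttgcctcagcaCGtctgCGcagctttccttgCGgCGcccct
Airn chr17:12741061-12741360 (+ strand): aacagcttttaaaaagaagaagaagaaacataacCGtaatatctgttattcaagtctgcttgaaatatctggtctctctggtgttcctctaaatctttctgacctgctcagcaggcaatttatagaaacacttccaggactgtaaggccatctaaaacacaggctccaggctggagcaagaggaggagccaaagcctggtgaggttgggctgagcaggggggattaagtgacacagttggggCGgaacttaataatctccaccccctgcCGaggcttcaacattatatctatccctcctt
Grb10 chr11:12037371-12037670 (- strand): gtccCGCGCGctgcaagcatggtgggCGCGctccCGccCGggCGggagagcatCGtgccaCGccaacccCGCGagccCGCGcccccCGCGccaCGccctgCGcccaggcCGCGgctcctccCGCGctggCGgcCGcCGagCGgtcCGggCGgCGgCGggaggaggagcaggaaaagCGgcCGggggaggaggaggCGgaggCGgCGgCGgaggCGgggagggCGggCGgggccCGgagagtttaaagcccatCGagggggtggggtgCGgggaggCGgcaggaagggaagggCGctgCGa
Plagl1 chr10:13090582-13090881 (+ strand): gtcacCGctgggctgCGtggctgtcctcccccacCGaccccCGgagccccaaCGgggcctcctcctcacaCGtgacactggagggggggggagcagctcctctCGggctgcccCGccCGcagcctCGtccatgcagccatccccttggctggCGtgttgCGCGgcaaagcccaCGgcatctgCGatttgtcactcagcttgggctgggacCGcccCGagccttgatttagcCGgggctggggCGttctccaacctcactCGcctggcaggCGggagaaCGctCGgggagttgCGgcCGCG
Zdbf2 chr1:63273019-63273318 (+ strand): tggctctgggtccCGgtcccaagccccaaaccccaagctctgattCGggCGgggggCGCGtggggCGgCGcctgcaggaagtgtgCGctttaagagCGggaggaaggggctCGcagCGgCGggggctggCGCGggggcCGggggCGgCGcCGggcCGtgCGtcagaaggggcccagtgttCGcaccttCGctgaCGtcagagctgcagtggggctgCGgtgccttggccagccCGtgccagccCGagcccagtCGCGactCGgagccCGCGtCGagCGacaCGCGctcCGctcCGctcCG
Dlk1 chr12:109452573-109452872 (+ strand): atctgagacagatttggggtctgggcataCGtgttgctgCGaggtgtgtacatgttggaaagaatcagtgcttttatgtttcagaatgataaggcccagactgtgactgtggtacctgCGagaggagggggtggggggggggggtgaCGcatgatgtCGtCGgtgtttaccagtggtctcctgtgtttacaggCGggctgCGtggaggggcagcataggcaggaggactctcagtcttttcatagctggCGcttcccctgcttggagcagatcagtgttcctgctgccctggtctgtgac

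These windows held 9 CG dinucleotides at Kcnq1ot1, 3 at Airn, 45 at Grb10, 26 at Plagl1, 38 at Zdbf2 and 9 at Dlk1, against a median of 7 over 32851 RefSeq promoter windows. Grb10 had more than 98.1% of all windows and Airn more than 23.3%. A second Grb10 window, chr11:12027922-12028221, lay in the same imprinted peak and held 9. A second Zdbf2 window, chr1:63200108-63200407, held 15 and lay 42593 bp from the nearest imprinted peak. Neither is printed. The windows of Kcnq1ot1 and Airn lay outside imprinted H3K27me3 peaks, at 1703 and 640 bp from the nearest. Both lay in H3K4me3 peaks with nearly all reads on the paternal allele, 98.1%, 96.3%, 97.2% and 99.2% at Kcnq1ot1 and 97.9%, 100%, 95.5% and 96.2% at Airn, here in B6/CAST replicates 1 and 2 and CAST/B6 replicates 2 and 3.

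The reciprocal crosses separate the parent from the strain, since the paternal allele is CAST in B6/CAST and B6 in CAST/B6. In all 29 imprinted peaks each of the 4 libraries had the same parent higher. The paternal share ran from 60.2 to 97.5% over the libraries of the 25 paternal peaks and from 10.0 to 29.0% over those of the 4 maternal peaks, values that the rule itself used. A further 90 peaks passed in both crosses with the same strain higher. The median absolute log2 ratio of all informative peaks was 0.27 (B6/CAST) and 0.26 (the reverse cross). B6/CAST limited the calls, with 139 peaks past the threshold (1.56%) against 1148 in CAST/B6 (12.9%). At unadjusted p-values below 0.05 in both crosses, 78 peaks had the same parent higher, by edgeR.

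**Figure D1:**
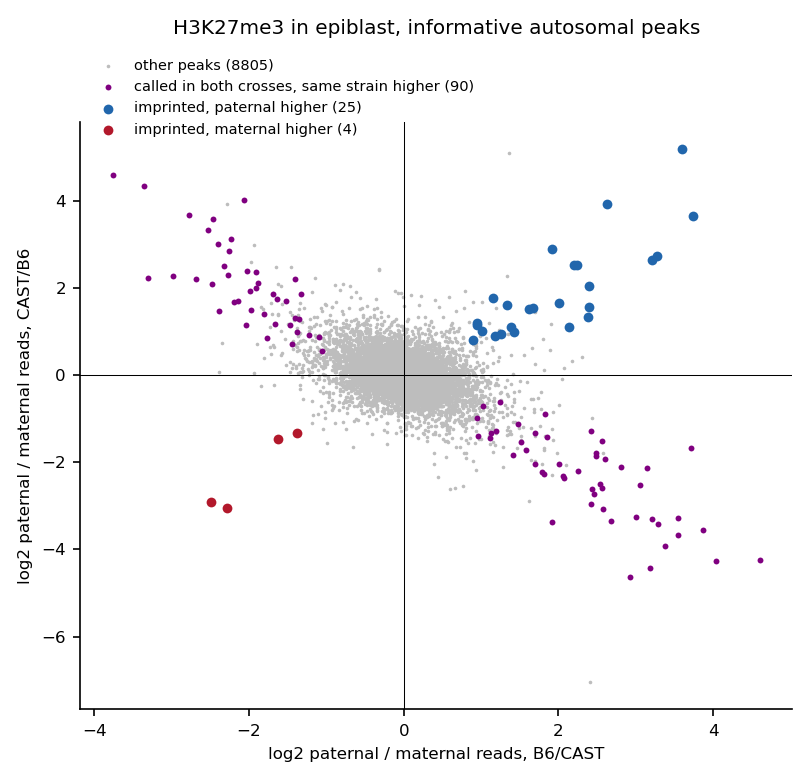
Each point is 1 of the 8924 informative autosomal H3K27me3 peaks of the epiblast, placed by its log2 ratio of paternal to maternal reads in B6/CAST (horizontal) and CAST/B6 (vertical). The 25 paternal (blue) and 4 maternal (red) imprinted peaks lie in the quadrants of equal sign, and the 90 peaks that followed the strain (purple) lie in the other two.

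Both allele columns of a library come from 1 sample, and with the library as a block edgeR called 52 imprinted peaks (43 paternal, 9 maternal), which included the 29. Of the 23 added peaks 16 lay on chromosomes 7 and 17. A joint fit, which takes cross and strain into account and tests the parent over all 4 libraries, passed at 67 peaks (0.751%), 56 paternal (0.628%) and 11 maternal (0.123%), which included all 29. With the block the joint fit passed at 208 peaks (129 paternal, 79 maternal). The imprinted count depended on the libraries. It was 53 without B6/CAST replicate 2, 13 without CAST/B6 replicate 1 and 17 without CAST/B6 replicate 2, in fits of the 4 cross and parent groups together that gave 37 with all libraries. The peaks just inside the threshold lay upstream of Shank2 and at Tnfrsf23, with larger adjusted p-values of 0.0350 and 0.0372 by edgeR, and those just outside within Shank2 and at 2010001K21Rik, with 0.0693 and 0.0706. With the library as a block these last 2 passed in both crosses.

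**Figure D2:**
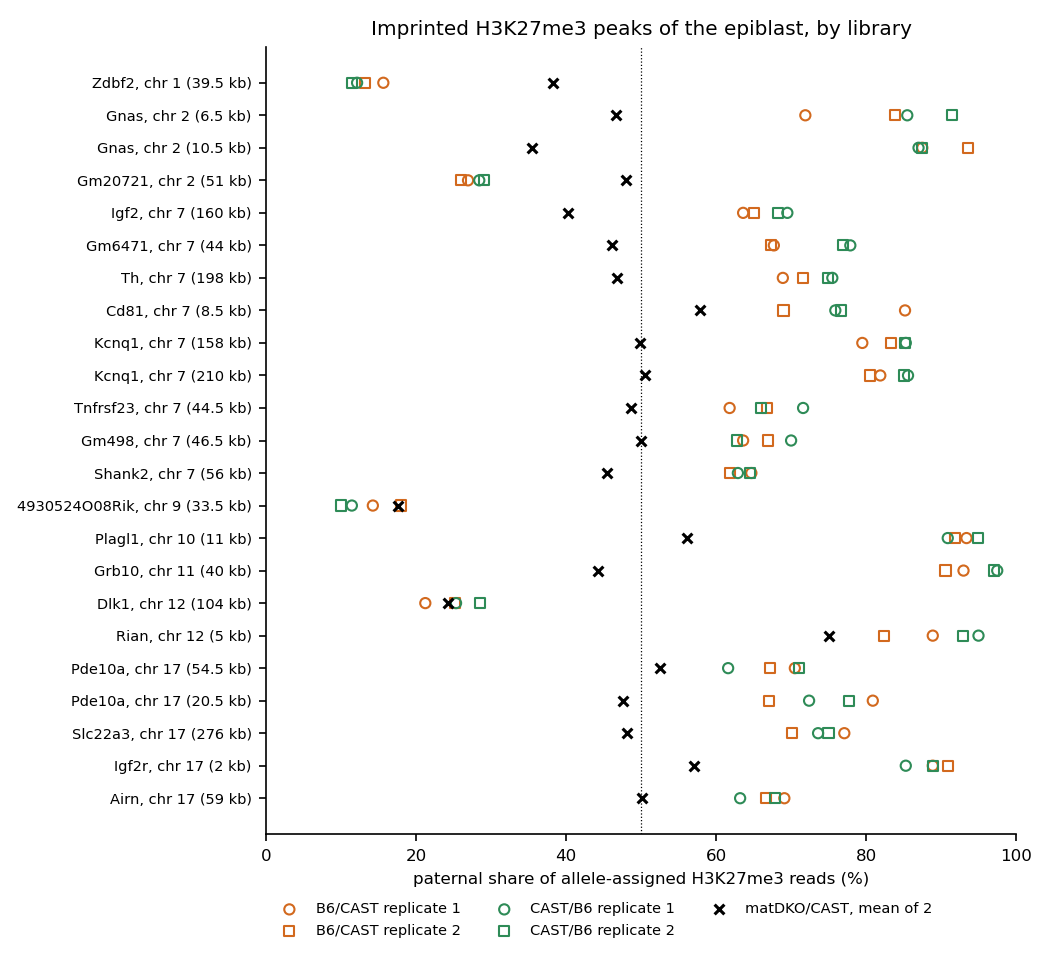
Paternal share of allele-assigned H3K27me3 reads (horizontal, in %) at 23 of the 29 imprinted peaks, each on a line with its gene, chromosome and length, in the 4 wild-type epiblast libraries (open symbols) and the mean of 2 matDKO/CAST libraries (crosses). Paternal peaks lie at 61.6% or more and maternal peaks at 29.0% or less in every wild-type library, while most crosses lie near 50%.

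Of the 29 peaks 20 lay in 2 regions, 9 at the end of chromosome 7 and 11 on proximal chromosome 17, all of them paternal. The region on chromosome 7 holds the imprinted clusters of Igf2, a fetal growth factor, and of Kcnq1, a potassium channel gene whose intron is the origin of Kcnq1ot1. From the first to the last paternal peak of the joint fit it ran over chr7:142063001-144265500, 2.20 Mb on GRCm38. It held 30 informative peaks, of which 21 passed the joint fit with the paternal allele higher and none with the maternal allele higher. In 26 of the 30 (86.7%) the paternal share was above the autosomal share in every library, which was so for 6.12% of all informative peaks. These bounds were set from the same calls, so the counts are a description. Summed over the region the paternal share was 70.2%, 71.6%, 75.8% and 74.6%, and over the rest of the chromosome 49.7%, 49.6%, 50.4% and 50.2%.

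The paternal share was highest on both sides of the Kcnq1ot1 start and lower farther out. The peak at chr7:143298501-143509000 begins beside the start of Kcnq1ot1 and covers Cdkn1c, an inhibitor of the cell cycle, Slc22a18, a transporter, and Phlda2, which restrains placental growth. Its paternal share was 81.9%, 80.5%, 85.6% and 85.1%, a log2 ratio of 2.20 ± 0.23 (SE, edgeR) in B6/CAST and 2.53 ± 0.09 in CAST/B6. The peak over the first part of Kcnq1 and the far end of Kcnq1ot1, chr7:143074001-143231500, was alike, at 79.5%, 83.3%, 85.3% and 85.2%. Their 12863 and 8651 reads over the 4 libraries made them the most deeply covered imprinted peaks.

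Farther toward the centromere, the peak of 198 kb over Th, tyrosine hydroxylase, Ascl2, a transcription factor of the placenta, and Tspan32 had shares of 68.9%, 71.6%, 75.5% and 74.9%. The Igf2 peak of 160 kb, with Ins2, the insulin 2 gene, lay between -683 and -522 kb of the Kcnq1ot1 start and had 63.6%, 65.0%, 69.5% and 68.2%. Between them a peak at the pseudogene Gm6471 had 67.7%, 67.3%, 77.9% and 76.9%. A short peak of 8.50 kb at Cd81, a membrane protein, beyond Th on the side of Kcnq1ot1, had 85.2%, 69.0%, 75.9% and 76.7%. On the telomeric side, Tnfrsf23, a decoy receptor, had 61.8%, 66.8%, 71.6% and 66.0%. The last imprinted peaks of the region, at Gm498 and upstream of Shank2, a scaffold protein of synapses, had 62.8 to 70.0% and 61.9 to 64.7%. The Cd81 peak held 20 paternal and 9 maternal reads in B6/CAST replicate 2, a share with a 95% exact binomial interval of 49.2 to 84.7%, while the interval of the Cdkn1c peak in CAST/B6 replicate 1 was 84.6 to 86.5%. Intervals cover counting error only. Every library was above an equal share at these peaks, and joint calls went on to 969 kb from the Kcnq1ot1 start, inside Shank2.

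The region on chromosome 17 holds Igf2r, the receptor that clears insulin-like growth factor 2, and Airn, the non-coding RNA that starts in an intron of Igf2r on the opposite strand. From the first to the last paternal joint call it ran over chr17:8224001-12881000, 4.66 Mb, with 33 informative peaks. Of these, 18 passed the joint fit with the paternal allele higher and none with the maternal allele higher, against 0.628% of all informative peaks with the paternal allele higher. In 22 (66.7%) the paternal share was above the autosomal share in every library, against 6.12% of all informative peaks. These bounds too were set from the same calls, so the counts are a description. The paternal share of the region was 69.9%, 63.8%, 62.4% and 62.6%, against 49.8%, 50.1%, 50.1% and 50.8% on the rest of chromosome 17.

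The shortest imprinted peak, 2.00 kb at chr17:12742001-12744000 in the first part of Airn, had the highest share of this region, 88.9%, 90.9%, 85.3% and 88.9%, from 92 reads over the 4 libraries. The peak of 276 kb over Slc22a3 and Slc22a2, transporters of organic cations, and Plg, plasminogen, had 77.1%, 70.1%, 73.6% and 75.0%. The peak of 59.0 kb over the end of Airn and Mas1, a G protein-coupled receptor, had 69.1%, 66.7%, 63.2% and 67.9%. No imprinted peak covered the Igf2r start.

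The 2 peaks within Pde10a, a phosphodiesterase gene, lay between -4163 and -3999 kb of the Airn start and had 70.5%, 67.2%, 61.6% and 71.1%, and 80.9%, 67.0%, 72.4% and 77.7%.

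**Figure D3:**
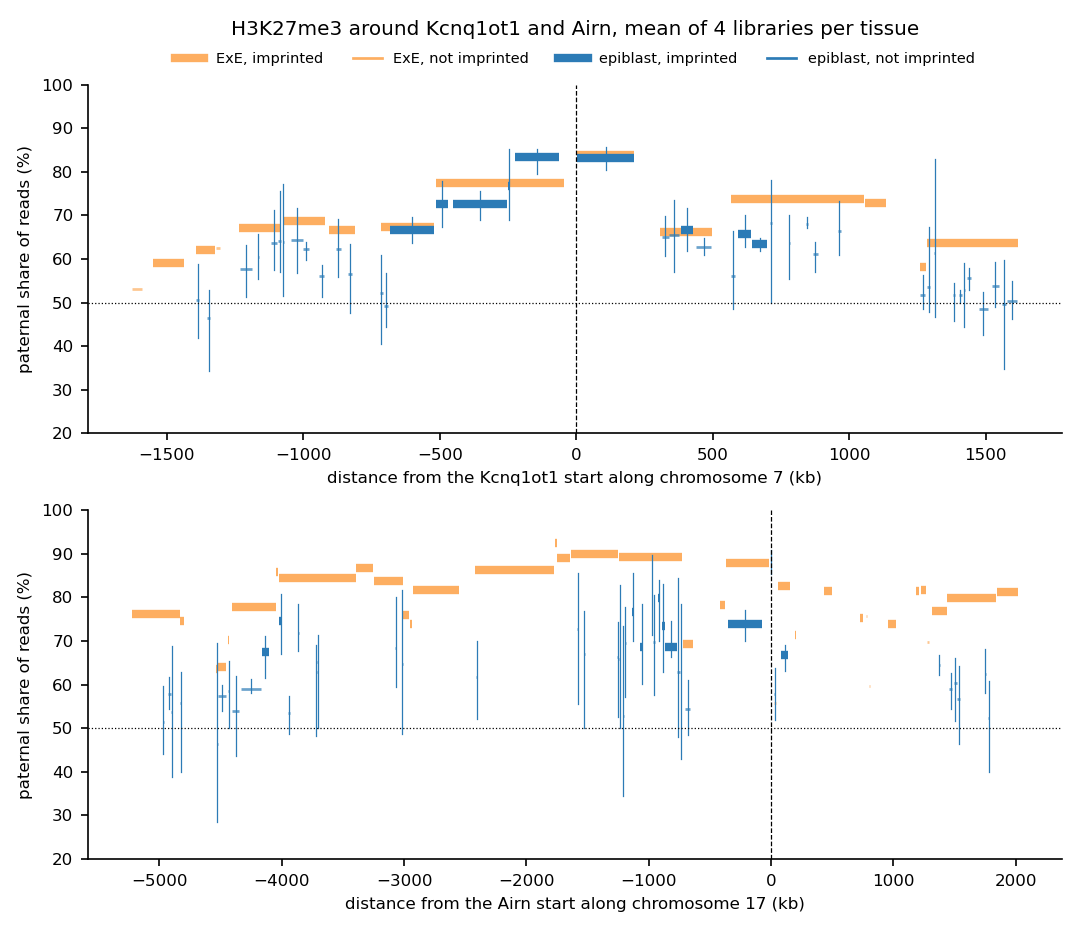
Paternal share of H3K27me3 reads (vertical, in %, mean of 4 libraries) of informative peaks in epiblast (blue) and ExE (orange) against their distance in kb from the start of Kcnq1ot1 on chromosome 7 (upper panel) and of Airn on chromosome 17 (lower panel). Bar length is peak length, thick bars are imprinted, and thin vertical lines give the range over the epiblast libraries. Epiblast peaks next to Kcnq1ot1 reach 83.3%, and ExE peaks around Airn lie mostly above those of epiblast.

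The remaining 5 paternal peaks were 5.00 to 40.0 kb long and lay at single genes. Grb10, an adaptor that dampens growth factor signals, had the largest bias of all, with 93.0%, 90.6%, 97.5% and 97.1% of reads on the paternal allele over chr11:12010501-12050500, log2 ratios of 3.59 ± 0.27 and 5.19 ± 0.18 (SE). Chromosome 11 was low on the paternal allele in B6/CAST replicate 1, and the share of Grb10 there was still 93.0%. Plagl1, a zinc finger factor that slows growth, followed with 93.4%, 91.9%, 90.9% and 94.9% around the start printed above. Its GENCODE gene body begins upstream of the peak, at chr10:13060504. At Gnas, which encodes a G protein subunit and has several starts used by either parent, 2 peaks of 6.50 and 10.5 kb inside the gene had 71.9%, 83.9%, 85.5% and 91.5%, and 87.5%, 93.6%, 87.0% and 87.5%. The fifth, 5.00 kb at Mir341 in the host gene Rian, a maternally expressed non-coding RNA, had 88.9%, 82.4%, 95.0% and 92.9% from 103 reads.

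The 4 maternal peaks were 33.5 to 104 kb long. The peak at Zdbf2, a zinc finger gene transcribed from the paternal allele, covered chr1:63243001-63282500 with the start printed above. It had paternal shares of 15.6%, 13.2%, 12.1% and 11.4%, log2 ratios of -2.49 ± 0.24 and -2.92 ± 0.11. A peak within 4930524O08Rik, whose near end lay 15408 bp before the start of Rasgrf1, a guanine nucleotide exchange factor, had 14.2%, 18.0%, 11.4% and 10.0%.

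Dlk1, a transmembrane ligand related to Delta that is expressed from the paternal allele, lay under a maternal peak of 104 kb with shares of 21.2%, 25.2%, 25.3% and 28.5%. The peak of 51.0 kb beyond the end of Gnas, 2288 bp from Gm20721, had 26.9%, 26.0%, 28.4% and 29.0%. So the Gnas locus and the Dlk1 to Rian interval each held peaks of either direction.

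The clusters were then summed over all their autosomal peaks, informative or not, as the log2 ratio of paternal to maternal reads relative to all autosomal peaks of the library. Of 25 listed imprinted clusters and loci 19 held a peak, and in 13 all 4 libraries lay on one side, 7 paternal and 6 maternal. The exact sign-flip test over 4 libraries cannot reach 0.05, since its smallest p is 2 of 16 sign patterns, and all 13 gave it. The sums come from the libraries that chose the imprinted peaks, so for clusters that hold such peaks the side is a description. The paternal clusters were Grb10 at 2.36 ± 0.53 (SD, n = 4), Kcnq1 at 1.91 ± 0.13, Plagl1 at 1.60 ± 0.32, Igf2r at 1.40 ± 0.23, H19-Igf2 at 0.92 ± 0.10, Snrpn at 0.85 ± 0.41 and Mest at 0.20 ± 0.06.

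The maternal ones were Zdbf2 at -2.70 ± 0.31, Smoc1 at -1.21 ± 0.44, Dlk1-Dio3 at -0.80 ± 0.13, Gnas at -0.68 ± 0.12, Sfmbt2 at -0.66 ± 0.08 and Rasgrf1 at -0.55 ± 0.19. The Gnas value rests on the long maternal peak beyond the gene, and without the 10000 bp added on each side it was 2.76. The Hox clusters, Polycomb targets with no known imprinting, gave 0.05 ± 0.09 for Hoxa, -0.10 ± 0.19 for Hoxb, 0.03 ± 0.04 for Hoxc and 0.05 ± 0.04 for Hoxd. Hoxb lies on chromosome 11, and its lowest library was B6/CAST replicate 1, at -0.39.

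**Figure D4:**
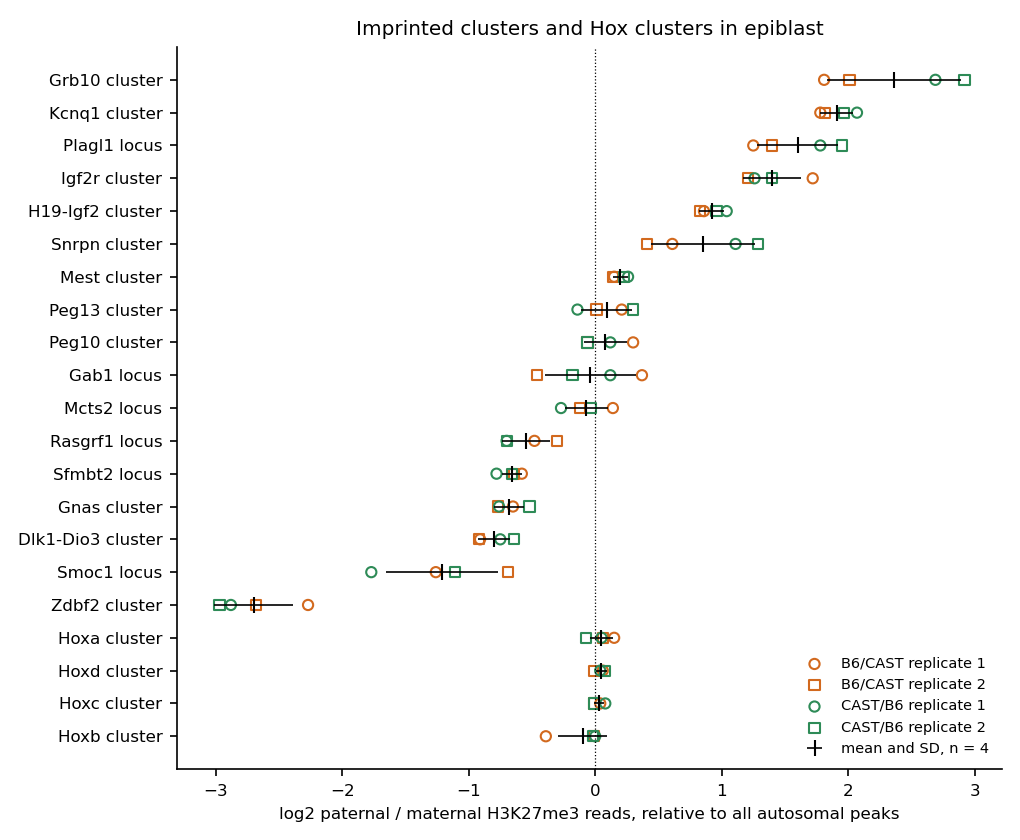
Log2 ratio of summed paternal to maternal H3K27me3 reads over all peaks of a cluster, relative to all autosomal peaks of the library (horizontal), for imprinted clusters and the 4 Hox clusters with at least 20 reads in every library. Symbols are the 4 epiblast libraries and ticks with bars the mean and SD. Grb10, Kcnq1 and Plagl1 lie farthest to the paternal side, Zdbf2 farthest to the maternal side, and the Hox clusters near 0.

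In each listed cluster the informative peak with the most reads was examined. It was imprinted in the Kcnq1, H19-Igf2, Igf2r, Dlk1-Dio3, Gnas, Grb10, Zdbf2 and Plagl1 clusters. In the Snrpn cluster it lay at Mkrn3, a ring finger gene expressed from the paternal allele, with paternal shares of 61.3%, 59.1%, 72.5% and 74.2% and an adjusted p-value of 5.53e-05 in the joint fit (edgeR), but 0.296 in B6/CAST. At Sfmbt2, a Polycomb protein gene imprinted in the placenta, the shares were 37.6%, 38.4%, 37.0% and 39.2%, with adjusted p-values of 0.310 in B6/CAST and 0.00342 in the joint fit. Smoc1, an extracellular matrix protein, had 26.7%, 37.0%, 22.5% and 31.4% from 172 reads and 0.0133 in the joint fit, and the start of Rasgrf1 had 38.9%, 44.1%, 39.2% and 38.2% and 0.0214. With the library as a block, edgeR called Mkrn3 and Sfmbt2 in both crosses. The most read peaks of the Peg10, Mest, Peg13, Mcts2 and Gab1 clusters, at Calcr, Klf14, Kcnk9, Defb25 and Gab1, passed no test, with joint adjusted p-values of 0.944 to 0.999.

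The side of the mark was set against the expressed allele for the 109 known and putative imprinted genes that the study lists, of which 74 had an informative peak within 10000 bp and 27 an imprinted one. Over all informative peaks 0.325% were imprinted, 25 of the 29 on the paternal allele. Neighbouring genes share peaks, so the genes are not independent. Of 19 maternally expressed genes with an imprinted peak, 18 had only paternal ones, among them Cdkn1c, Phlda2, Ascl2, Slc22a3 and Grb10, and Gnas had both. Igf2r was counted among the 18 through the short peak in the first part of Airn alone, which was also counted for Airn. Of 8 paternally expressed genes, 2 had a maternal peak, Zdbf2 and Dlk1, and 6 a paternal one. The 6 were Kcnq1ot1, Airn, Plagl1, Nespas, Igf2 and Ins2, so that the mark lay on the allele listed as expressed.

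The 38 peaks that passed the joint fit but were not imprinted comprised 31 paternal and 7 maternal ones, and 19 of them lay in the regions of chromosomes 7 and 17. With the library as a block, 17 of the 38 passed in both crosses and were imprinted. The 10 with the largest mean log2 ratio were examined. Zfp787, a zinc finger gene, led with a mean of 3.23 over a 3.00 kb exon peak of 75 reads, at 76.5%, 64.3%, 100% and 93.3%, of which B6/CAST did not pass (adjusted p = 0.392, edgeR). Tbc1d30, a GTPase regulator, had 53.2%, 68.8%, 79.8% and 78.8%, so that the libraries of the crosses did not overlap. Cobl, an actin nucleator beside Grb10, was alike in this, at 53.3%, 64.0%, 75.6% and 84.4%.

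Of the other 7, 5 lay in the 2 regions and all 5 were paternal, among them peaks in Pde10a (mean log2 ratio 1.37), at the start of Mir3105 inside Shank2 (1.29) and at Pabpc6 (1.14). Smoc1 (-1.28) and an intergenic peak of the Dlk1-Dio3 cluster at chr12:109960501-109968500 (-1.14) were maternal. The intergenic peak had paternal shares of 27.9%, 30.4%, 27.7% and 40.0%. This peak and that in Pde10a were among the 17 imprinted with the block.

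The imprinted peaks were longer than others, with a median of 40.0 kb against 9.00 kb for all informative peaks. They held a median of 1335 reads over the 4 libraries against 286. More reads make a call easier, and the part of depth was not tested. Their median H3K27me3 level, 1.49 RPKM, was close to that of all informative peaks, 1.24, and the medians of the inputs were 0.541 and 0.525. Levels reached 5.87 RPKM at Zdbf2 and 3.63 at Grb10. The ratio of observed to expected CG dinucleotides had a median of 0.211 over the imprinted and 0.264 over all informative peaks. It was 0.113 to 0.617, lowest at Gm498 and highest at the Gnas peak of 6.50 kb. A gene start lay in 17 of the 29 (58.6%) and in 61.6% of all informative peaks, and an H3K4me3 peak of the epiblast overlapped 22 (75.9%) and 74.2%.

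The rule used no ExE library. These were made from pools of 8 embryos, and the same test called 251 of 18592 ExE peaks (1.35%), 209 with the paternal (1.12%) and 42 with the maternal allele higher (0.226%). All 28 epiblast peaks that overlapped an informative ExE peak overlapped an imprinted one, and the parent was always the same (24 paternal, 4 maternal). Over all epiblast peaks with an informative ExE peak, 3.02% overlapped an imprinted one. The ExE peaks were longer, so that the 28 fell on 19 distinct ExE peaks. The short Airn peak was the exception, with no ExE peak and total levels of 2.23 RPKM in epiblast and 0.368 in ExE. Under the library block, 49 imprinted epiblast peaks had such an ExE peak.

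The size of the bias was set side by side in the tissues, with epiblast shares that had chosen the peaks. The ranges of the 4 libraries did not overlap at 18 of the 28 peaks, with ExE farther from an equal share at 12 and epiblast at 6. The 28 share 19 ExE peaks of unlike length, so these are not separate comparisons. The same ExE peak, at 77.6%, 77.7%, 78.0% and 76.4%, lay farther out than the Th peak and nearer than the Kcnq1 peak at chr7:143074001-143231500. At Slc22a3 the ExE share was 86.8%, 86.5%, 89.8% and 88.0%, above every epiblast library. In the region of chromosome 17 as a whole ExE had 84.8%, 84.4%, 86.6% and 83.9%, with 19 of 20 informative peaks imprinted. At Zdbf2 the maternal bias was smaller in ExE, with paternal shares of 26.6%, 25.9%, 31.3% and 32.8%, and Dlk1 had 20.3%, 23.7%, 22.7% and 24.4%.

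For the 17 clusters with informative peaks in both tissues the summed log2 ratios were compared by an exact permutation of the tissue labels over 4 and 4 libraries, two-sided. At 7 clusters this exact test gave p = 0.0286, the smallest it can give, and the adjusted p over the 17 was 0.0694, so none passed. The differences, epiblast minus ExE, were -1.29 at Igf2r, 1.70 at Grb10, -1.64 at Zdbf2, -1.15 at Smoc1, 0.71 at Snrpn, -0.57 at Gnas and 0.27 at Dlk1-Dio3. At Kcnq1 the means were 1.91 ± 0.13 and 1.78 ± 0.09 (SD, n = 4). The peaks summed differ between the tissues.

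**Figure D5:**
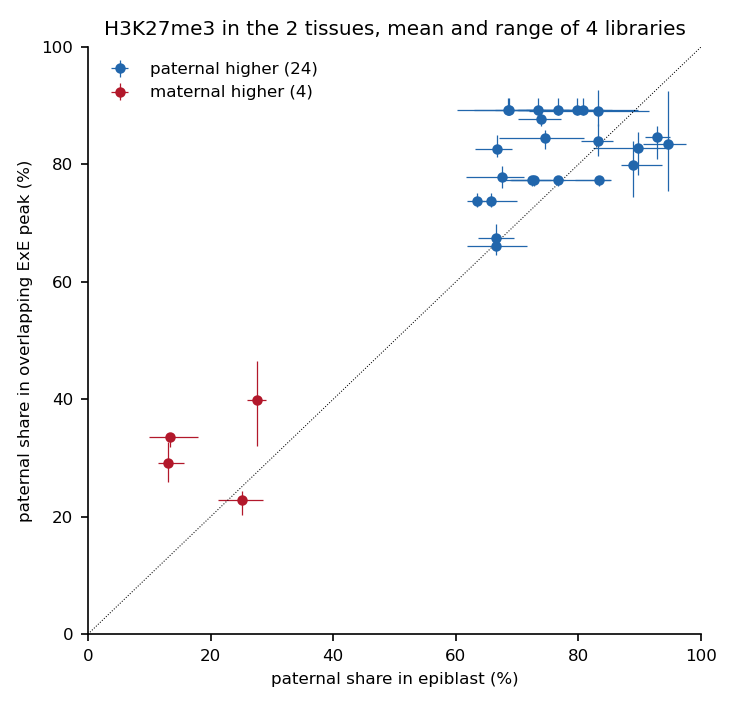
Paternal share of H3K27me3 reads (in %) at 28 imprinted epiblast peaks (horizontal) and in the ExE peaks that overlap them (vertical), with the mean and range of 4 libraries. All 24 paternal peaks (blue) lie above 50% and all 4 maternal peaks (red) below it in both tissues, and several epiblast peaks share 1 ExE peak.

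Active marks of the epiblast, from other libraries of the same crosses, were read at the 29 peaks. Their CAST/B6 libraries of H3K4me3 are replicates 2 and 3. Of all informative H3K4me3 peaks, 22 were imprinted (0.108%). Of the 19 H3K27me3 peaks with an informative H3K4me3 peak, 4 overlapped an imprinted one, against 9 of 5812 over all epiblast peaks (0.155%). At 2 the parents were opposite. The peak next to Kcnq1ot1 held maternal H3K4me3 at the starts of Cdkn1c, with paternal shares of 12.8%, 17.7%, 10.7% and 34.6%, and of Phlda2, with 20.9%, 34.5%, 15.1% and 44.4%, and Grb10 had 4.88%, 6.67%, 5.33% and 4.35% over the start printed above. With the library as a block 4 peaks had the opposite parent.

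At the other 2 both marks lay on the paternal allele. Plagl1 had H3K4me3 shares of 97.1%, 98.9%, 100% and 92.9% over the start printed above, from 14 to 105 reads per library. The short Airn peak had those given above for the Airn start. At the Zdbf2 start inside the maternal peak, H3K4me3 shares were 73.7%, 62.9%, 86.8% and 88.1%, with adjusted p-values of 0.100 and 2.52e-05 (edgeR), so it was not called in B6/CAST. The Dlk1 start was near an equal share, at 54.1%, 50.2%, 46.6% and 54.5%.

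H3K36me3, a mark of transcribed gene bodies, was imprinted at 7 of its informative peaks (0.0632%). It had an informative peak at 6 of the 29, of which 4 overlapped an imprinted one, against 0.843% over all epiblast peaks, and all 4 had the maternal allele higher under paternal H3K27me3. They were Grb10, with paternal H3K36me3 shares of 17.1%, 25.7%, 15.6% and 13.7%, Mir341 in Rian, with 13.7%, 19.8%, 16.4% and 14.3% over a peak of 224 kb that includes Meg3, and both Gnas peaks under 1 H3K36me3 peak with 39.4%, 38.7%, 33.5% and 34.7%.

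Embryos of matDKO/CAST were used to see which peaks kept their side without maternal methylation. The 2 libraries held 1.12 and 0.271 M reads with paternal shares of 46.0% and 44.2%, and 1.97% of the informative peaks passed the test. Of the 29 imprinted peaks 3 passed with the same parent higher, the peak before Rasgrf1 at 17.7% and 17.5%, Dlk1 at 22.4% and 26.0%, and Mir341 in Rian at 83.3% and 66.7%. Their adjusted p-values (edgeR) were 1.72e-09, 1.44e-07 and 0.0173, and the Rian peak had only 103 reads over the wild-type libraries. Rasgrf1, Dlk1-Dio3 and H19-Igf2 are known as loci methylated in sperm. The Igf2 peak, paternal in the wild type, had 40.3% and 40.1% and an adjusted p-value of 0.586 (edgeR). With the library as a block 8 of its 52 peaks passed.

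In the remaining 26 peaks both matDKO/CAST libraries lay nearer to an equal share than any wild-type library, and the median normalised log2 ratio of the higher to the lower allele was 0.27 over the 29, against 1.92 in B6/CAST and 1.56 in CAST/B6. Grb10 had 44.1% and 44.4%, Plagl1 53.3% and 58.8%, Zdbf2 41.6% and 34.9%, and the Cdkn1c peak 48.7% and 52.4%. The region of chromosome 7 as a whole had 46.6% and 48.7%, and that of chromosome 17 49.3% and 50.5%. These region values lay above the autosomal paternal shares of both libraries, 46.0% and 44.2%, and in the normalised ratios 24 of the 29 peaks had the wild-type side higher. The difference between the genotypes was not tested. The maternal background and the depth of the second library also differed, and their part was not tested.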

How the data were processed

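Allele-specific read counts of H3K27me3, H3K4me3 and H3K36me3 at peaks were deposited by the authors as whole reads, not normalised. Per the submitters' processing notes, reads were trimmed with Trim Galore 0.4.4 and aligned with Bowtie2 2.3.2 to GRCm38. The authors masked strain SNPs in the genome, assigned reads to an allele by SNPsplit, so that only reads over a SNP count, and joined the peaks of both crosses per tissue. Total levels were deposited as RPKM in windows of 1000 bp.

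Maternal and paternal counts were compared with edgeR 4.0.16 (R 4.3.3, quasi-likelihood test, TMM factors, Benjamini-Hochberg adjustment over all informative peaks), each cross on its own. Peaks needed 20 reads in at least 1 allele column, and overlaps at least 1 bp. Shares are paternal reads in % of allele-assigned reads, and 0.5 was added to summed counts before a log2 ratio. Starts and ends were taken from the coordinate columns, since 3290 peak names (27.9%) differed from them, and starts are given counted from 1. Genes are GENCODE vM21. The replicates of a cross differed beyond counting noise (chi-square per degree of freedom 3.55 and 1.43). Both alleles of a library come from 1 sample, and their replicate differences correlated at 0.451 over 4618 peaks in B6/CAST and 0.168 over 5540 in CAST/B6, so the library is a true block. Fits were tested on simulated data. Named are all imprinted peaks, the most read informative peak of each listed cluster, and the 10 peaks with the largest mean log2 ratio among those called in the joint fit alone. Other genes and peaks named were chosen after their values were seen. The members, gene lists and tests were chosen with earlier results of these data known. Alternatives were the library block, column totals, 1 scale per library, DESeq2 1.42.0, stricter or no read filters and a threshold of 0.01. Others were joined peaks, leaving out peaks of high input, a fit of all groups together and leaving out each library. No peaks overlapped and none had an input above 4 RPKM, so joining and the input filter repeated the reported fit. Leaving out chromosomes 3 and 11 was added after seeing the data. Results for some genes are not reported here.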

Additional observations from a re-analysis of the deposited data

How the results depend on the processing

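With the library as a replicate block, edgeR called 52 imprinted peaks in place of 29, 208 peaks in place of 67 in the joint fit, 49 in place of 28 also called in ExE, 4 in place of 2 with opposite H3K4me3 and 8 in place of 3 kept in matDKO/CAST. DESeq2 gave 18 imprinted peaks, 17 also called in ExE and 1 with opposite H3K4me3, and that last count was also 1 at a threshold of 0.01 and without chromosomes 3 and 11, where Grb10 lies. Leaving out 1 wild-type library at a time, with the lone library of its cross assumed to vary like the other groups, gave 13 to 53 imprinted peaks, 30 to 181 in the joint fit and 13 to 42 also called in ExE. The joint fit gave 181 without B6/CAST replicate 2, 30 without CAST/B6 replicate 1 and 39 without CAST/B6 replicate 2. The number also called in ExE was 13 without CAST/B6 replicate 1 and 17 without CAST/B6 replicate 2. The cause of these shifts was not tested. The other alternatives gave 20 to 37 imprinted peaks. Of the 29, 11 stayed called in every one of the 14 alternatives that tested them, namely Zdbf2, the Gnas peak of 10.5 kb, Gm6471, Th, both Kcnq1 peaks, the peak before Rasgrf1, Plagl1, Grb10, Dlk1 and Slc22a3. Leaving out peaks of high input, among the 14, removed no peak and so repeated the reported fit. Of the cluster values under the alternatives, 129 moved from the reported mean by less than the SD of its 4 libraries. A change of direction was counted only where all 4 libraries lay on the same side. It was seen at 1, the Gnas cluster, which reached 2.76 without the added 10000 bp, a setting that drops the maternal peak beyond the gene. Calls lost in some settings included peaks of few reads, such as Rian with 103 and the Airn peak of 2.00 kb with 92, and of many, such as Igf2 with 5269, and the part of depth was not tested.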
